A study of Homo sapiens with 9 samples.

Results

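The 10 genes described here encode pattern-recognition receptors and their adaptors. They are the Toll-like receptors TLR1, TLR2, TLR3, TLR4 and TLR6, the co-receptor CD14, the adaptor MYD88, and, of the cytosolic NOD route, the receptors NOD1 and NOD2 and the kinase RIPK2. They were chosen by gene symbol, and all 10 were found once each among the 19389 genes of the deposited table. RNA was measured in 9 libraries of SW1353, a single human chondrosarcoma cell line that is used in place of chondrocytes. In 3 libraries (PBSL plus IL-1β) the cells had been given PBSL, made from Protaetia brevitarsis seulensis larvae (a flower chafer beetle), 2 h before interleukin-1β (IL-1β) at 20 ng/mL for 20 h. In 3 libraries (IL-1β) the cells received the same cytokine without PBSL, and 3 libraries came from untreated cells. No group received PBSL alone, and the labels give several PBSL concentrations without saying which one was sequenced. The labels do not say that libraries of a group were cultured separately, and p-values here measure library-to-library spread, which may be technical.

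Pattern-recognition receptors detect molecules of microbes and of damaged tissue. TLR4 responds to bacterial lipopolysaccharide together with LY96 (MD-2) and CD14, TLR2 pairs with TLR1 or TLR6 to bind bacterial lipopeptides, and TLR3 binds double-stranded RNA in endosomes. All of these but TLR3 pass the signal on through MYD88, while TLR3 uses TICAM1 (TRIF), which TLR4 can use as well. The receptor for IL-1β shares MYD88 and the IRAK kinases with them, so that the cytokine given here acts through one of the adaptors measured. NOD1 and NOD2 bind fragments of peptidoglycan in the cytosol and recruit RIPK2. These routes converge on NF-κB, and in cartilage TLR2 and TLR4 are known for binding fragments of broken-down matrix.

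Because TLR3 and MYD88 were among the genes that were higher after IL-1β, and TLR4 was lower, the promoters of these 3 are shown, from 250 bases before to 50 bases after the transcript start (RefSeq, GRCh38.p14, all on the plus strand, 5′ to 3′). Capitals mark matches, on either strand, to the letters GAAA repeated after a gap of any 2 bases, the core of the element bound by interferon regulatory factors. The windows are chr4:186068906-186069205 for TLR3, chr3:38138411-38138710 for MYD88 and chr9:117704153-117704452 for TLR4.
TLR3: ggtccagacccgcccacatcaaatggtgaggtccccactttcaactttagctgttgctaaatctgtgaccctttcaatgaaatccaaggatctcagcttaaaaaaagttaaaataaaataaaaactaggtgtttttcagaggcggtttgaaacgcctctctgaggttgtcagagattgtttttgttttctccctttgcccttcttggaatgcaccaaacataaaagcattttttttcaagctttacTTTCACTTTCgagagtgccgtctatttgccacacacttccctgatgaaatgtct
MYD88: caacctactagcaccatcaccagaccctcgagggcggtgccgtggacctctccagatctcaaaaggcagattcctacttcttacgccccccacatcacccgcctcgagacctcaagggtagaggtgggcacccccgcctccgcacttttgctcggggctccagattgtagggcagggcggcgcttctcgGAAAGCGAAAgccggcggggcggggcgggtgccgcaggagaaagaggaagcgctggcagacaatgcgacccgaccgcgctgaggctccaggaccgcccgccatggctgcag
TLR4: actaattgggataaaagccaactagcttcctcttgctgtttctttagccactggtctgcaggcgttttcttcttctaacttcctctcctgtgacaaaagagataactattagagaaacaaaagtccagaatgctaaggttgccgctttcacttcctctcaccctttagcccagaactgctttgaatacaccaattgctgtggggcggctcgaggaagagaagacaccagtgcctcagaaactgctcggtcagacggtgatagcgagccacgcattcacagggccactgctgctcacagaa

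The TLR3 window held 1 match on the minus strand, spanning the transcript start from base -4 to base 6, and the MYD88 window held 1 on the plus strand, from base -61 to base -52, counted with the first transcribed base as 1. The TLR4 window held none. Of all 35116 promoter windows in the RefSeq table, 3.57% held a match. Sequence was at hand for 8 of the 10 genes in 9 windows, NOD2 having 2. TLR3 and MYD88 were the 2 genes of these 8 with a match to this repeat. RIPK2, which was also higher after IL-1β, and TLR1 were not searched. The palindromic letters TTCNNNGAA, the element bound by STAT factors, were found at 2 places in TLR3 and at 1 place each in MYD88 and CD14, against 7.66% of all windows with at least 1. The MYD88 match to these letters overlaps the capitals. TGANTCA, which AP-1 binds, was found in CD14 alone (7.71% of all windows), and the NF-κB consensus, searched on both strands, in none of the 9 (11.3% of all windows). A match is only a description of letters, and its absence says nothing about a factor that may bind elsewhere.

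Expression values in the deposited table are normalized by the authors and are not counts. When low values were multiplied by the length of a gene's exons in kilobases, the most common products in a library lay between 0.05 and 0.06 in 7 libraries and between 0.04 and 0.05 in the other 2, with 165 to 218 of 2283 to 2479 values in that interval. The median product within a preset window around it, 0.0494 to 0.0570 by library, is taken here as the rough worth of 1 read. By this estimate, which is approximate, a library held 2719 to 3098 reads of TLR4 in untreated cells, and at most 23.5 of NOD2, 22.3 of TLR2 and 19.6 of CD14 in any library. Levels of different genes are compared below as these per-length values. A gene was tested when its value reached 1 in at least 3 of the 9 libraries. Of the 10 genes 7 passed, and TLR2, CD14 and NOD2 did not. Log2 fold changes were fitted with limma after 1 was added to each value, which understates the change of genes near or below 1, and a gene counted as called when its p, adjusted by Benjamini-Hochberg over all 11924 tested genes, was under 0.05.

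**Figure D1:**
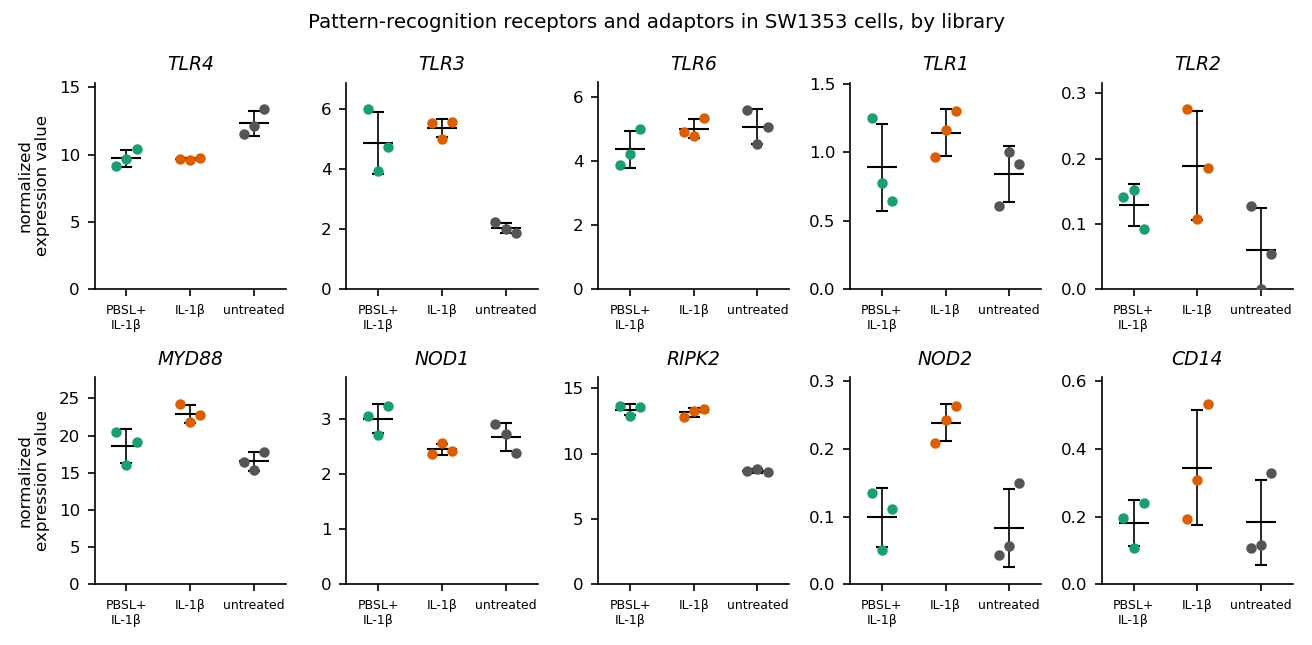
Normalized expression value (y axis, linear from 0) of each of the 10 genes in the 3 libraries of PBSL plus IL-1β, IL-1β and untreated cells (x axis). Points are libraries, the short bar is the mean and the whiskers are 1 SD; TLR3, MYD88 and RIPK2 are higher in IL-1β than in untreated libraries, TLR4 is lower, and NOD2, TLR2 and CD14 stay below 1 throughout.

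SW1353 cells had the RNA for some of these receptors and very little for others. In untreated cells MYD88 stood highest at 16.5 ± 1.22 (mean ± SD, n = 3 here and below), followed by TLR4 at 12.3 ± 0.923 and RIPK2 at 8.69 ± 0.130. TLR6, NOD1 and TLR3 came next at 5.08 ± 0.537, 2.68 ± 0.261 and 2.04 ± 0.172, and TLR1 at 0.842 ± 0.207. The ranges of neighbours in this order did not overlap from MYD88 down to CD14, whereas CD14 (0.183 ± 0.125), NOD2 (0.0833 ± 0.0582) and TLR2 (0.0603 ± 0.0637) overlapped. In both groups given IL-1β, RIPK2 stood above TLR4, and TLR3 stood above NOD1 and overlapped TLR6. In PBSL plus IL-1β cells the mean of TLR2 was also above that of NOD2, though their libraries overlapped.

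Other Toll-like receptors were also low. TLR9 was listed at 0 in every library, and the highest value in any library was 0.304 for TLR7, 0.122 for TLR8, 0.102 for TLR10 and 0.099 for TLR5, the flagellin receptor. LBP, the serum protein that carries lipopolysaccharide to CD14, reached at most 0.309. LY96, which holds the lipopolysaccharide in its complex with TLR4, was well measured at 10.9 ± 1.37 in untreated cells. Thus TLR4 and its partner LY96 were measured while the co-receptor CD14 stayed near the detection limit.

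Macrophages carry CD14, TLR2 and NOD2, so their markers were read in the same libraries. Of 12 macrophage markers 7 stayed below 1 in every library, among them PTPRC (highest value 0.393), TYROBP (0.138), ITGAM (0.092), CD163 (0.094) and SPI1 (0.198). Other markers on the list were measured throughout: CD33, a myeloid surface receptor, lay between 19.1 and 22.5 over the 9 libraries and CSF1R, the receptor for macrophage colony-stimulating factor, between 2.69 and 3.81. FCER1G, a signalling chain of Fc receptors, reached up to 2.17. CD68, which many cell types express, made up most of the summed marker value, which was 107 to 114 in PBSL plus IL-1β libraries, 123 to 125 in IL-1β libraries and 93.8 to 103 in untreated libraries. Its part in the differences between groups was not tested. The chondrocyte label was only partly met: SOX9 stood at 12.0 ± 0.680 in untreated cells, but COL2A1 reached at most 0.027 and 7 of 12 chondrocyte genes stayed below 1 everywhere. Library sums of all values were 536952 to 553196 in PBSL plus IL-1β, 547862 to 552657 in IL-1β and 523758 to 542873 in untreated cells.

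The first comparison asked what IL-1β did to these genes in cells without PBSL. RNA for the double-stranded RNA receptor TLR3, the NOD kinase RIPK2 and the adaptor MYD88 was higher, and RNA for the lipopolysaccharide receptor TLR4 was lower. Of the 7 tested genes 3 were called higher, 1 lower and 3 neither, where 32.1% of all tested genes were called, 16.2% higher and 16% lower. The median log2 fold change of the 7 was 0.22, against -0.0049 for all tested genes. With 7 genes these shares are a description, and in bulk RNA fewer cells with a transcript and less transcript per cell cannot be told apart.

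TLR3 had the largest log2 fold change of the 7. Its value was 5.52, 5.01 and 5.57 in the IL-1β libraries, against 2.23, 2.01 and 1.89 in the untreated ones. Every IL-1β library lay above every untreated library, by a ratio of means of 2.63, where 52.8% of all tested genes did not overlap. The log2 fold change was 1.07 (SE 0.111, limma adjusted p = 1.71e-05), and over 17 alternative settings it ran from 1.03 to 1.35 and was called in each. TLR3 had 570.1 to 679.7 estimated reads in the IL-1β libraries and 209 to 251 in the untreated ones, so its change does not rest on a few reads. The 3 tested genes whose profile over the 9 libraries lay nearest to that of TLR3, each profile taken relative to its untreated mean on the log2 scale, were APOL6, a member of the apolipoprotein L family, ADAMTS6, a secreted metalloproteinase, and GCH1, the first enzyme of tetrahydrobiopterin synthesis. Their root mean square differences from TLR3 were 0.0991, 0.0991 and 0.102. APOL6 averaged 9.59 ± 1.20 in PBSL plus IL-1β, 11.3 ± 0.192 in IL-1β and 4.90 ± 0.130 in untreated cells.

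RIPK2, the kinase that carries the signal of NOD1 and NOD2, had 12.8, 13.3 and 13.4 in IL-1β libraries, against 8.66, 8.83 and 8.57 in untreated ones. The groups were far apart relative to their narrow spread. Its log2 fold change was 0.55 (SE 0.0547, limma adjusted p = 1.19e-05). MYD88, the shared adaptor of the IL-1 receptor and most Toll-like receptors, had 24.2, 21.8 and 22.7 in IL-1β libraries, against 16.4, 15.4 and 17.8 in untreated ones. All 3 IL-1β values again lay above all 3 untreated values, where 52.8% of all tested genes did not overlap. The log2 fold change of MYD88 was 0.45 (SE 0.0861, limma adjusted p = 0.00173). Both genes were called under all 17 alternatives, with adjusted p up to 0.000171 for RIPK2 and 0.0108 for MYD88.

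TLR4 moved the other way. Its value was 9.69, 9.62 and 9.74 in IL-1β libraries, which lie within a narrow band, against 11.6, 12.1 and 13.4 in untreated libraries. Each IL-1β library was below each untreated library, where 52.8% of all tested genes did not overlap. The log2 fold change was -0.32 (SE 0.0682, limma adjusted p = 0.0036), and TLR4 was called lower under all 17 alternatives, with adjusted p between 0.00186 and 0.0185. In the annotation TLR4 shares its span on chromosome 9 with a second protein-coding model on the same strand, AL160272.2, and how reads common to both were counted is not stated. With TLR3 higher and TLR4 lower, the value of TLR4 was 1.81 ± 0.0975 times that of TLR3 in IL-1β cells and 6.10 ± 0.948 times in untreated cells.

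**Figure D2:**
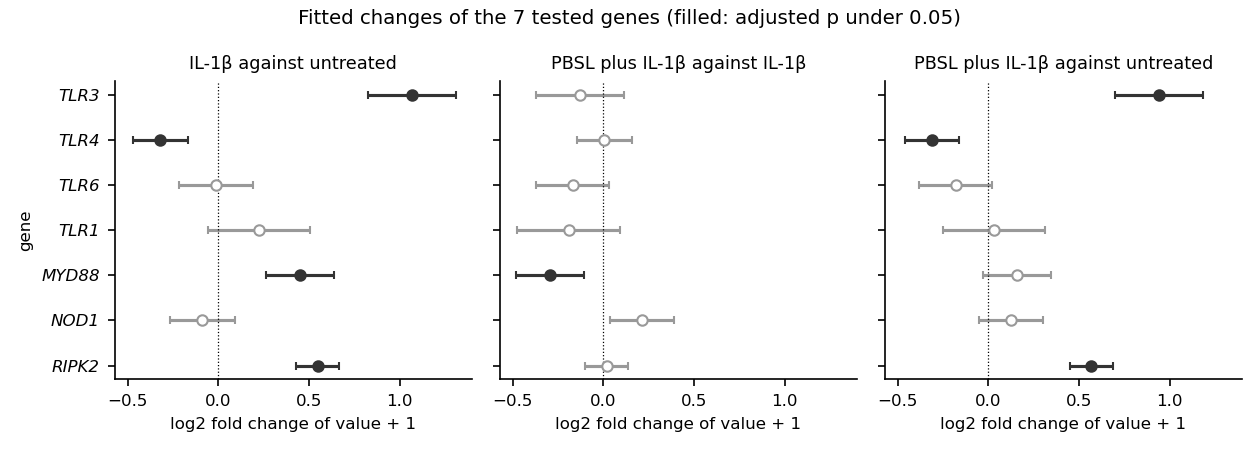
Fitted log2 fold change of the expression value plus 1 (x axis) for the 7 tested genes (y axis), in panels for IL-1β against untreated, PBSL plus IL-1β against IL-1β, and PBSL plus IL-1β against untreated cells. Points are estimates, bars are 95% confidence intervals, and filled points passed an adjusted p of 0.05: TLR3, MYD88, RIPK2 and TLR4 in the left panel, MYD88 in the middle and TLR3, TLR4 and RIPK2 on the right.

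The partners of TLR2 and the receptor NOD1 did not pass the test. TLR6 had 4.91, 4.80 and 5.36 in IL-1β libraries, against 5.62, 4.54 and 5.09 in untreated ones, and a log2 fold change of -0.01 (SE 0.0925, limma adjusted p = 0.941) with a 95% interval of -0.21 to 0.19. TLR1 had 0.967, 1.16 and 1.30 in IL-1β libraries, against 0.609, 1.00 and 0.912 in untreated ones, with a log2 fold change of 0.22 (SE 0.129, limma adjusted p = 0.213). The interval of TLR1, -0.0588 to 0.50, still leaves room for a change as large as that of MYD88. TLR1 and TLR6 lie on the same strand of chromosome 4, at 38790677 to 38856817 and 38823715 to 38856817 (GRCh38, GENCODE 29), overlap in the annotation and are close in sequence. How the authors assigned reads that fit both is not stated, so the split between these 2 genes is uncertain. NOD1 had 2.37, 2.57 and 2.42 in IL-1β libraries, against 2.91, 2.73 and 2.39 in untreated ones, with a log2 fold change of -0.09 (SE 0.0815, limma adjusted p = 0.442) and an interval of -0.27 to 0.0897. RIPK2 therefore stood at 5.37 ± 0.194 times the value of NOD1 in IL-1β cells and 3.27 ± 0.302 times in untreated cells.

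NOD2, TLR2 and CD14 were too low to be tested. NOD2 had 0.209, 0.243 and 0.263 in IL-1β libraries, against 0.0430, 0.0570 and 0.150 in untreated ones, or about 17.4 to 23.5 and 3.50 to 12.2 reads. Its groups did not overlap, which held for 52.8% of all tested genes in this comparison. TLR2 had 0.275, 0.108 and 0.185 in IL-1β libraries, against 0.127, 0 and 0.0540 in untreated ones. CD14 had 0.194, 0.309 and 0.530 in IL-1β libraries, against 0.106, 0.115 and 0.327 in untreated ones. For TLR2 and CD14 the groups overlapped. If every gene with any value above 0 was tested, NOD2 had a log2 fold change of 0.19 (SE 0.0440, limma adjusted p = 0.0127), TLR2 of 0.16 (SE 0.0579, adjusted p = 0.0755) and CD14 of 0.18 (SE 0.0999, adjusted p = 0.244). Antisense transcripts overlap NOD1 and NOD2 in the annotation, and whether the counting used strand is not stated.

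The genes that carry the receptors' signals were read beside them, where 16.2% of all tested genes were called higher with IL-1β and 16% lower. Of 31 tested adaptors, kinases and ubiquitin ligases, 11 rose with IL-1β, 0 fell by limma (2 at an unadjusted p under 0.05, 1 called without PBSL 2 or PBSL 3, and 2 called when the PBSL libraries were left out of the fit), and 20 were not called, with a median log2 fold change of 0.0658. Of the adaptors that bind the receptors themselves, TICAM1, which TLR3 uses, rose to 8.51 ± 0.584 in IL-1β cells, against 6.52 ± 0.113 in untreated cells (adjusted p = 0.00386). TIRAP, which bridges TLR2 and TLR4 to MYD88, had 5.19 ± 0.174 in IL-1β cells and 4.84 ± 0.455 in untreated cells (adjusted p = 0.416), and TRAF6, the ubiquitin ligase below MYD88, had 3.54 ± 0.440 in IL-1β cells and 3.34 ± 0.448 in untreated cells (adjusted p = 0.635).

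Among the 11 that rose were kinases and ligases further down. IRAK2, a kinase of the complex that forms on MYD88, rose to 6.69 ± 0.514 in IL-1β cells, against 1.09 ± 0.163 in untreated cells, with a log2 fold change of 1.88 (SE 0.0945, limma adjusted p = 3.54e-08). BIRC3 (cIAP2), a ubiquitin ligase that acts on RIPK2, rose to 14.7 ± 0.349 in IL-1β cells, against 0.407 ± 0.109 in untreated cells, and BIRC2 (cIAP1) to 133 ± 0.893, against 76.0 ± 2.77. BIRC3 reached at most 0.522 in untreated libraries, so it passed the filter only through the groups given IL-1β and could only be seen to rise. IKBKE, a kinase that activates interferon regulatory factors, rose to 21.9 ± 0.546 in IL-1β cells, against 7.33 ± 0.586 in untreated cells, and TRAF3, which joins TICAM1 to that branch, had a log2 fold change of 0.72. IRAK3, an inhibitor of the complex known mainly from macrophages, stayed at 0.088 or below in every library.

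**Figure D3:**
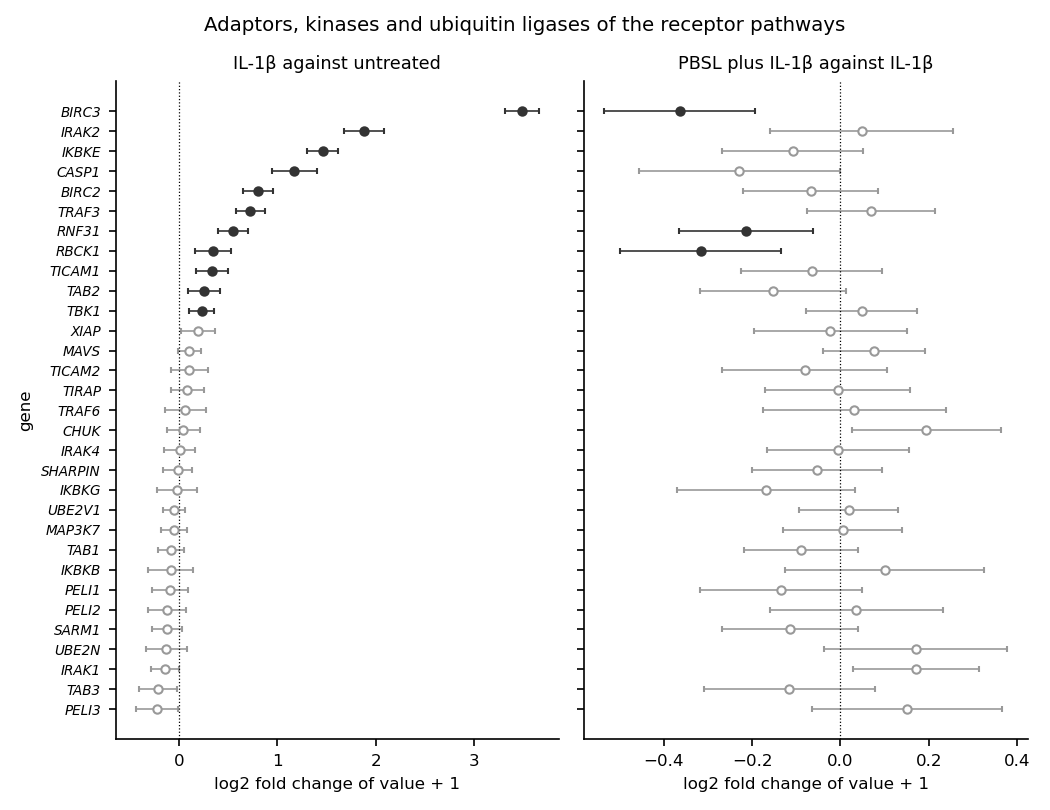
Fitted log2 fold change of the expression value plus 1 (x axis) of the 31 tested adaptors, kinases and ubiquitin ligases (y axis, ordered by the left panel) for IL-1β against untreated cells (left) and PBSL plus IL-1β against IL-1β (right). Points are estimates with 95% confidence intervals and filled points passed an adjusted p of 0.05; 11 are filled on the left, all above 0, and BIRC3, RBCK1 and RNF31 on the right, all below 0.

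Inhibitors of these pathways also changed with IL-1β, 9 of 17 tested rising and 3 falling, where 16.2% of all tested genes were called higher and 16% lower. TNFAIP3 (A20), which removes ubiquitin chains from proteins such as RIPK2 and TRAF6, rose to 24.9 ± 3.46 in IL-1β cells, against 2.09 ± 0.640 in untreated cells. ZC3H12A, an RNase that degrades cytokine messages, NFKBIA (IκBα) and TNIP1, a partner of A20, had log2 fold changes of 3.57, 2.19 and 1.73. The 3 that fell were DUSP1, a phosphatase of MAP kinases (-0.32), RNF216 (-0.15), a ubiquitin ligase, and ERBIN (-0.29), which binds NOD2. These 3 calls were not stable, with 0 or 1 left when untreated 1, untreated 2 or any IL-1β library was left out. The receptor of the cytokine itself, IL1R1, had 15.9 ± 0.806 in IL-1β cells and 14.7 ± 1.51 in untreated cells (adjusted p = 0.397), while its co-receptor IL1RAP rose to 9.60 ± 0.154, against 5.76 ± 0.0777.

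Sensors outside the genes described so far were mostly higher, where 16.2% of all tested genes were called higher and 16% lower. Of 10 tested, 7 rose and 1 fell, with a median log2 fold change of 0.61; 15 further sensors in the table were below the filter, and a sensor near 0 in untreated cells could pass it only by being higher with IL-1β. The cytosolic RNA sensors IFIH1 (MDA5) and DDX58 (RIG-I) had log2 fold changes of 1.70 and 1.22, their relative DHX58 (LGP2) of 1.27, and the DNA sensor IFI16 of 1.38. NLRP3, among the 7 that rose, reached 1 only in libraries given IL-1β. The sensor that fell was CLEC7A (dectin-1), the receptor for fungal glucans, with 0.170 ± 0.0504 in IL-1β cells and 1.14 ± 0.0650 in untreated cells. CLEC7A reached 1 only in untreated libraries, so it passed the filter only through the group where it was high, and its fall was set by the filter. Among 9 tested helpers of the receptors 3 rose and 1 fell. The count that rose was 5 without PBSL 3 and also 5 when all PBSL libraries were left out of the fit. SLC15A3, a transporter of peptides including NOD ligands in the endosome and lysosome, rose to 12.6 ± 1.97 in IL-1β cells, against 2.59 ± 0.561 in untreated cells, and SLC15A4, a related transporter, to 21.2 ± 0.649, against 17.1 ± 0.898. HSP90B1 (gp96), a chaperone needed to fold Toll-like receptors, rose by a log2 fold change of 0.18, and HMGB1, a nuclear protein that can act as a TLR4 ligand outside cells, fell by 0.2 on the log2 scale. The call of HMGB1 was lost without untreated 1 and without each of the IL-1β libraries (adjusted p from 0.0595 to 0.0836). That of HSP90B1 was lost without untreated 1, untreated 3, IL-1β 1 or IL-1β 3 (from 0.0566 to 0.0718).

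The second comparison asked what PBSL pretreatment changed in cells given IL-1β. Of the 7 genes 1 passed the test: MYD88 was called lower, and TLR1, TLR3, TLR4, TLR6, NOD1 and RIPK2 were not called. This is 0 higher by limma (1 at an unadjusted p under 0.05, NOD1) and 1 lower of 7, where 22.5% of all tested genes were called, 11.5% higher and 11% lower. The median log2 fold change of the 7 was -0.13, against 0.0079 for all tested genes. This comparison uses the same IL-1β libraries as the first one, so a chance high or low value there enters both with opposite sign.

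MYD88 had 20.5, 16.1 and 19.2 in PBSL plus IL-1β libraries, against 24.2, 21.8 and 22.7 in IL-1β libraries. All 3 PBSL libraries were below the IL-1β ones, PBSL 2 the furthest, as held in one direction or the other for 41.8% of all tested genes. The log2 fold change was -0.29 (SE 0.0861, limma adjusted p = 0.0306), with a 95% interval of -0.48 to -0.11. The call was not stable. It was lost without IL-1β 1 (adjusted p = 0.112), IL-1β 2 (0.0590), IL-1β 3 (0.0798), PBSL 2 (0.0974) or PBSL 3 (0.0513) and with no filter on low values (0.0667), within a range of 0.00767 to 0.112 over 17 alternatives. The direction was the same in all of them, from -0.37 to -0.20.

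TLR3 had 5.98, 3.94 and 4.73 in PBSL plus IL-1β libraries, against 5.52, 5.01 and 5.57 in IL-1β libraries. PBSL 1 lay above all IL-1β libraries and PBSL 2 and PBSL 3 below all of them. The log2 fold change was -0.13 (SE 0.111, limma adjusted p = 0.437), and without PBSL 1 it was -0.26 (SE 0.0910, adjusted p = 0.0501). TLR1 was likewise highest in PBSL 1, with 1.25, 0.776 and 0.645 in PBSL plus IL-1β libraries, against 0.967, 1.16 and 1.30 in IL-1β libraries, and a log2 fold change of -0.19 (SE 0.129, limma adjusted p = 0.305). Only PBSL 1 of the 3 PBSL libraries lay within the IL-1β range of TLR1. Among the PBSL libraries MYD88, TLR3, TLR1, NOD2 and RIPK2 stood highest in PBSL 1, TLR4, TLR6, NOD1 and CD14 in PBSL 3, and TLR2 in PBSL 2.

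The remaining receptors gave these values. TLR4 had 9.13, 9.69 and 10.4 in PBSL plus IL-1β libraries, against 9.69, 9.62 and 9.74 in IL-1β libraries, with a log2 fold change of 0.00625 and a 95% interval of -0.14 to 0.16. RIPK2 had 13.6, 12.9 and 13.6 in PBSL plus IL-1β libraries, against 12.8, 13.3 and 13.4 in IL-1β libraries, with a log2 fold change of 0.0186 and an interval of -0.10 to 0.14. Changes within these intervals, in either direction, could not be told from 0 in these libraries. TLR6 had 3.88, 4.24 and 5.01 in PBSL plus IL-1β libraries, against 4.91, 4.80 and 5.36 in IL-1β libraries, with a log2 fold change of -0.17 (SE 0.0925, limma adjusted p = 0.21).

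NOD1 had 3.07, 2.72 and 3.23 in PBSL plus IL-1β libraries, against 2.37, 2.57 and 2.42 in IL-1β libraries. Every PBSL library was above every IL-1β library, where 41.8% of all tested genes did not overlap in this comparison. The log2 fold change of 0.21 (SE 0.0815, limma adjusted p = 0.0801) did not pass the test under the main setting or any of 16 alternatives (adjusted p from 0.0560 to 0.202). NOD2 had 0.135, 0.0510 and 0.111 in PBSL plus IL-1β libraries, about 4.10 to 11.0 reads, against 0.209, 0.243 and 0.263 in IL-1β libraries. The NOD2 groups did not overlap, as held for 41.8% of all tested genes. With no filter on low values the log2 fold change of NOD2 was -0.17 (SE 0.0440, limma adjusted p = 0.0398). TLR2 had 0.142, 0.152 and 0.0920 and CD14 had 0.196, 0.107 and 0.241 in PBSL plus IL-1β libraries, overlapping the IL-1β libraries given above.

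With PBSL, of the 31 adaptors, kinases and ligases 3 fell and 0 rose by limma (2 at an unadjusted p under 0.05), with 2 called higher without PBSL 1 and 1 without PBSL 3. Of all tested genes 11% were called lower and 11.5% higher in this comparison, and the counts in this paragraph are a description beside those shares. The 3 that fell were BIRC3, at 11.2 ± 0.896 in PBSL plus IL-1β cells against 14.7 ± 0.349 in IL-1β cells, and RBCK1 and RNF31, subunits of the ligase that builds linear ubiquitin chains, with log2 fold changes of -0.32 and -0.21. The count that fell was 1 without IL-1β 1 or IL-1β 3 and with no filter, and the call of RNF31 was lost in 11 of 17 alternatives. IRAK2, TICAM1, TIRAP and TRAF6 were not called (adjusted p of 0.751, 0.559, 0.968 and 0.843). Nor was the inhibitor TNFAIP3, at 28.5 ± 2.14 in PBSL plus IL-1β cells and 24.9 ± 3.46 in IL-1β cells (adjusted p = 0.306). Of 17 inhibitors DUSP1 and ERBIN fell and 0 rose by limma (2 at an unadjusted p under 0.05), with log2 fold changes of -0.72 and -0.28. The count of inhibitors that fell was 7 without PBSL 1, 4 after rescaling by the median ratio and 1 with no filter and without IL-1β 1, IL-1β 2, IL-1β 3 or PBSL 2. Without PBSL 3, 1 inhibitor was called higher.

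Of the 10 other sensors 5 fell with PBSL and 0 rose by limma (also 0 at an unadjusted p under 0.05), with a median log2 fold change of -0.28. Of all tested genes 11% were called lower and 11.5% higher. IFIH1 had 6.64, 4.37 and 6.13 in PBSL plus IL-1β libraries, against 8.41, 8.44 and 10.3 in IL-1β libraries. Its groups did not overlap, as held for 41.8% of all tested genes, and its log2 fold change was -0.59 (SE 0.124, limma adjusted p = 0.00782). DHX58, NLRP1 (an inflammasome sensor), DDX58 and IFI16 fell with log2 fold changes of -0.57, -0.53, -0.44 and -0.38. Apart from NLRP1 these are known as interferon-induced genes. IFI16 had 56.4, 34.9 and 42.9 in PBSL plus IL-1β libraries, against 57.5, 57.5 and 57.4 in IL-1β libraries (limma adjusted p = 0.0456). PBSL 1 thus lay close to the IL-1β libraries for IFI16. The count of sensors that fell was 3 without IL-1β 1, IL-1β 3 or PBSL 2 and with no filter. Among the 9 helpers SLC15A3 fell to 6.67 ± 1.44 in PBSL plus IL-1β cells, against 12.6 ± 1.97 in IL-1β cells. UNC93B1, which moves TLR3 to endosomes, fell to 16.3 ± 2.20, against 21.8 ± 1.04. HSP90B1 fell by 0.15 on the log2 scale, with a limma adjusted p of 0.0495, just under the cutoff. HMGB1 and LRRC59, an endoplasmic reticulum protein, rose with log2 fold changes of 0.34 and 0.18. The call of LRRC59 was lost without any one of the IL-1β libraries, PBSL 2 or PBSL 3 (adjusted p from 0.0635 to 0.0987). The count of helpers called higher was also 1 with no variance trend and with the replicate number added to the fit.

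**Figure D4:**
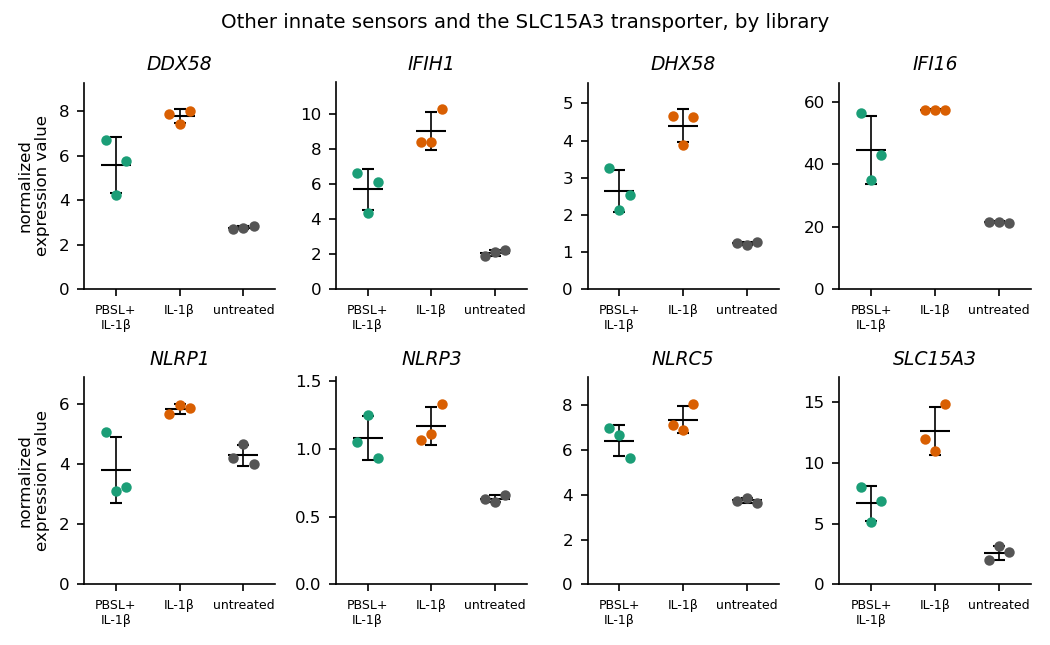
Normalized expression value (y axis, linear from 0) of 7 other innate sensors and the transporter SLC15A3 in the 3 libraries of PBSL plus IL-1β, IL-1β and untreated cells (x axis). Points are libraries, the short bar is the mean and the whiskers are 1 SD; for DDX58, IFIH1, DHX58, IFI16, NLRP1 and SLC15A3 the PBSL libraries lie below the IL-1β libraries.

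The third comparison set PBSL plus IL-1β against untreated cells, with which both earlier comparisons share libraries. TLR3 and RIPK2 were called higher and TLR4 lower, 3 of 7, where 41.6% of all tested genes were called, 22.3% higher and 19.3% lower. The log2 fold changes were 0.94 (SE 0.111, limma adjusted p = 4.31e-05) for TLR3, 0.57 (SE 0.0547, limma adjusted p = 8.62e-06) for RIPK2 and -0.31 (SE 0.0682, limma adjusted p = 0.00337) for TLR4, and each was called under all 17 alternatives. The libraries of these 3 did not overlap, and those of the other 4 did, where 48.2% of all tested genes did not overlap. MYD88 was not called, at 18.6 ± 2.28 in PBSL plus IL-1β cells and 16.5 ± 1.22 in untreated cells, with a log2 fold change of 0.16 (SE 0.0861, limma adjusted p = 0.168). Without PBSL 2 MYD88 was called higher (log2 fold change 0.25, adjusted p = 0.0210). TLR6 had -0.18 (adjusted p = 0.139), and was called lower only without PBSL 3, among the alternatives run (-0.26, adjusted p = 0.0399). TLR1 and NOD1 had log2 fold changes of 0.0308 and 0.12 and were not called.

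Around them, 11 of the 31 adaptors, kinases and ligases rose and 4 fell in this comparison, 6 of the 10 other sensors rose and 2 fell, and 7 of the 17 inhibitors rose and 4 fell. Of all tested genes 22.3% were called higher and 19.3% lower. BIRC3 and NLRP3, counted as rising, passed the filter only through libraries given IL-1β, and CLEC7A, counted as falling, only through untreated libraries. IRAK2 stood at 6.97 ± 0.874 in PBSL plus IL-1β cells, against 1.09 ± 0.163 in untreated cells. TICAM1 rose to 8.10 ± 0.696, against 6.52 ± 0.113 in untreated cells. LY96, the partner of TLR4, was called higher at 15.0 ± 2.39 in PBSL plus IL-1β cells and 10.9 ± 1.37 in untreated cells (adjusted p = 0.0295), and had not been called with IL-1β alone (adjusted p = 0.262). The difference between those LY96 effects is the second comparison, which was not called (adjusted p = 0.312), and the LY96 call against untreated cells was lost without untreated 2 (0.116), untreated 3 (0.0647) or PBSL 3 (0.117) and with no filter (0.0720). The 4 adaptors and ligases that fell numbered 1 or 2 when an untreated library, IL-1β 1 or PBSL 3 was left out. They numbered 2 when all IL-1β libraries were left out of the fit. The 2 sensors that fell numbered 1 without untreated 1, untreated 3, IL-1β 1, IL-1β 3, PBSL 2 or PBSL 3, and 3 without PBSL 1. These sensors also numbered 1 with no filter, with a filter of 5 and when all IL-1β libraries were left out of the fit.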

How the data were processed

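The deposited table held normalized signal values per gene symbol for 9 libraries, made by the authors from libraries of an MGIEasy directional kit, per the labels' protocols. The submitters' processing notes name Trim Galore, STAR, HTSeq and hg38, without versions. Whether the values are FPKM, TPM or another measure, and how shared reads were counted, is not given in the sources used here.

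Tested genes had values of 1 or more in 3 or more libraries. limma 3.58.1 (R 4.3.3) was fitted with a variance trend to log2 of the value plus 1, with a mean per group over all 9 libraries and 6 residual degrees of freedom. Tests are 2-sided. With 3 libraries a group, no exact permutation test was run, since its smallest p is 0.1. The estimated read per kilobase is the median of value times exon length (GENCODE 29) between 0.03 and 0.075, over values of 0.01 to 0.2. It covers counting only. The fit was tested on simulated data.

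All 10 genes are named, together with IRAK2, IRAK3, LY96, TIRAP, TICAM1, TRAF6, TLR5, TNFAIP3 and IL1R1. From each list of pathway genes, the called genes with the smallest p, up to 4 per comparison, could be named. The genes and lists were chosen with earlier results of these data known. Of 29 other sensors listed 25 matched the table, 1 of them by a newer symbol. Markers of other cell types were read as values. The lists of IL-1 genes and of induced targets are summarised in the closing section. CLEC7A, TRAF3, IL1RAP, DUSP1, ERBIN and RNF216 with IL-1β, IFI16 and HSP90B1 with PBSL, and DEFB4A, were named after their values were seen. Python 3.11.15 and pandas 2.3.3 made the tables.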

Additional observations from a re-analysis of the deposited data

How the results depend on the processing

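Calls of TLR3, RIPK2, MYD88 and TLR4 with IL-1β, and of TLR3, RIPK2 and TLR4 with PBSL plus IL-1β against untreated cells, were kept under all 17 alternatives: pseudocounts of 0.1 and 0.5, no filter, a filter of 5, median-ratio rescaling, no variance trend, only the 2 groups compared, a replicate block and each of the 9 libraries left out. TLR1 and NOD1 could not be fitted under the filter of 5. With the replicate block the log2 fold changes of MYD88 were 0.45 (adjusted p = 0.000841) and -0.29 (adjusted p = 0.0203) in the first 2 comparisons, and the block changed no call of the 7 genes. Among pathway lists compared between PBSL plus IL-1β and IL-1β, the block left 1 inhibitor called lower, 1 helper called higher and 0 epithelial markers called lower, and against untreated cells 1 other sensor and 2 adaptors called lower. The labels do not say that the replicate numbers pair libraries, and the correlations of same-numbered libraries' deviations ran from -0.225 to 0.0681. Leaving out 1 library, 0 or 1 of the 7 genes was called lower with PBSL in cells given IL-1β, and 1 or 2 lower and 2 or 3 higher in PBSL plus IL-1β against untreated cells, the added genes being TLR6 and MYD88. Of all tested genes 1370 were called higher and 1314 lower with PBSL in cells given IL-1β, and 650 to 2019 and 664 to 1885 with 1 library left out. Values that changed sign were near 0 and uncalled. With PBSL against IL-1β, median-ratio rescaling gave -0.0015 for RIPK2 and -0.0134 for TLR4. The other changes of sign came from leaving out 1 library, over which TLR6 with IL-1β ran from -0.0768 to 0.0509. In PBSL plus IL-1β against IL-1β, RIPK2 ran from -0.0011 to 0.0429, TLR4 from -0.0380 to 0.0478, TRAF6 from -0.0474 to 0.0913, IRAK2 from -0.0344 to 0.12 and TIRAP from -0.0444 to 0.0161. In PBSL plus IL-1β against untreated cells, TLR1 ran from -0.10 to 0.12 and IL1R1 from -0.0803 to 0.0634. The cause of these changes was not tested. The counts of pathway lists under these settings were added after the values were seen. The depth behind NOD2, TLR2 and CD14, at most 23.5 estimated reads in a library, limits any statement on them.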

Other observations

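Genes that these receptors and the IL-1 receptor are known to switch on were read in the same libraries. All 9 tested targets of 12 listed rose with IL-1β, with a median log2 fold change of 3.30, and genes near 0 in untreated cells passed the filter only by rising. DEFB4A, an antimicrobial peptide, was listed at 0 in all untreated libraries and averaged 9.20 ± 3.05 in IL-1β cells. With PBSL 4 of the 9 fell and 0 rose by limma (0 at an unadjusted p under 0.05). The count that fell was 2 without IL-1β 2, IL-1β 3 or PBSL 2, with a pseudocount of 0.1 and with no filter. Of all tested genes 16.2% were called higher with IL-1β, and 11% lower and 11.5% higher with PBSL in cells given IL-1β. CCL5, a chemokine for lymphocytes, fell to 1.84 ± 0.655 in PBSL plus IL-1β cells, against 4.41 ± 0.285 in IL-1β cells, and CXCL10, an interferon-induced chemokine, to 4.73 ± 1.94, against 7.78 ± 1.34. ICAM1 fell to 9.84 ± 1.13, against 14.7 ± 1.00 (limma adjusted p = 0.00646). IL6 fell to 30.4 ± 6.90, against 44.6 ± 1.81 (limma adjusted p = 0.0175). The call of CXCL10 was lost in 7 of 17 alternatives (adjusted p up to 0.111). CXCL8 had 1083 ± 22.7 in PBSL plus IL-1β cells and 1021 ± 25.3 in IL-1β cells and was not called (adjusted p = 0.431).

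The counts in this paragraph stand beside the shares of all tested genes. With IL-1β 16.2% were called higher and 16% lower, and with PBSL in cells given IL-1β 11.5% higher and 11% lower. Of 6 tested genes of the IL-1 route 5 rose with IL-1β, of which IL1A, IL1B, IL1RN and IL36G passed the filter only through the groups given IL-1β, so that this count was largely set by the filter. With PBSL 2 rose further, IL1RN, the receptor antagonist, and IL36G, an IL-1 family cytokine, which stood at 31.1 ± 5.84 in PBSL plus IL-1β cells and 23.2 ± 0.887 in IL-1β cells (adjusted p = 0.0463). The call of IL36G was lost in 11 of 17 alternatives. Among macrophage markers, 4 of 12 were tested, of which CD68, CSF1R and FCER1G were higher with IL-1β and CD68 was lower with PBSL. Of 3 tested lymphocyte and epithelial markers CD3E, KRT8 and KRT18 fell with IL-1β, and KRT8 fell with PBSL as well, a call lost in 12 of 17 alternatives. Of 4 tested chondrocyte genes ACAN rose and SOX9, COL11A1 and HAPLN1 fell with IL-1β, and COL11A1 fell with PBSL as well. ACAN and FCER1G reached 1 only in libraries given IL-1β, and HAPLN1 and CD3E only in untreated libraries. The direction of these calls with IL-1β was thus set by the filter.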
